A study of Mus musculus with 4 samples.

Results

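The hedgehog pathway genes of the fetal mouse lung described here are the ligand Shh, the receptor Ptch1, the signal transducer Smo, the transcription factors Gli1, Gli2 and Gli3, the secreted-ligand antagonist Hhip and the co-receptors Gas1 and Boc. These 9 genes were taken by symbol, whatever their values, and all 9 were found among the 20674 genes listed in the files. The study profiled single cells of C57BL/6 mouse lungs in 4 libraries. At E17.5, the E standing for embryonic day, live cells were sorted from 3 wild-type lungs, without selection for a cell type. At E16.5, cells of 1 lung carrying αSMA-GFP, Tbx4-Cre and Rosa26-tdTomato were sorted for both reporters. αSMA-GFP marks cells in which the smooth muscle actin promoter is active. Tbx4-Cre with the Rosa26 reporter marks cells that use or once used the Tbx4 promoter, a driver of lung mesenchyme, so the tag follows descent and not present Tbx4 expression. The sort is 1 sample that differs from the lungs in stage, gate and alleles together, and these cannot be told apart.

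In hedgehog signalling a secreted ligand binds Patched, which otherwise holds Smoothened inactive. Released Smoothened acts through the Gli factors, and Gli1, Ptch1 and Hhip are widely used as readouts because the pathway itself raises them. Ptch1 and Hhip also bind the ligand and limit its spread, while Gas1, Boc and their relative Cdon help present it to Patched. In the embryonic lung Shh is known as a signal from the epithelium to the mesenchyme around it.

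Ptch1 and Hhip, the target genes that also bind the ligand, were called in the same direction in the mesenchyme and in myofibroblast-like, matrix fibroblast-like and pericyte-like cells (below). They parted in the epithelium and in the mesenchymal class named Ptn-Agtr2, where Hhip was called lower and Ptch1 was not called. In matrix fibroblast-like cells the Hhip call held in 13 of 17 alternative settings and the Ptch1 call in 15 of 17. The 250 bases before the annotated starts of both genes are printed to show what kind of promoter each has. The sequences are from RefSeq on GRCm38.p6, each on the minus strand and written 5′ to 3′ towards the start site, with every CpG dinucleotide in capitals. The Ptch1 window is chr13:63565736-63565985 and the Hhip window is chr8:80058009-80058258.
Ptch1: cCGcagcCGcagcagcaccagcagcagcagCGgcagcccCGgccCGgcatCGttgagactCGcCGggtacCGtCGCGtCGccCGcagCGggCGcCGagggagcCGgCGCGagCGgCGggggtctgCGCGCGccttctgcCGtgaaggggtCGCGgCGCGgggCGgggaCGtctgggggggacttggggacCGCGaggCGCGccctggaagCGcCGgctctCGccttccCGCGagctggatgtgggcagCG
Hhip: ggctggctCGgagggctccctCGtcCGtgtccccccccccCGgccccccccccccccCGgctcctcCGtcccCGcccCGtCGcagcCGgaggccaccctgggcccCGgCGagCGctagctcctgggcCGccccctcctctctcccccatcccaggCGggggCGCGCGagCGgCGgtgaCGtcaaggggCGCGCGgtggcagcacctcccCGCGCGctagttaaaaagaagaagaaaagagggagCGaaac

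Both windows were dense in CpG. The Ptch1 window held 41 CpG at a GC content of 78.4%, a CpG count that 1.09% of the 32851 promoter windows of that length reached. The Hhip window held 28, reached by 7.61% of windows, and the median over all windows was 6. Of the 9 genes, 6 had an entry, and the other counts were 34 for Gli3, 22 for Gli2, 15 for Smo and 10 for Gas1. Shh, Gli1 and Boc had no entry. The Gli-binding consensus GACCACCCA, searched on both strands, was in none of the 6 windows and in 0.225% of all windows. Its inner part ACCACCC, which overlaps it, was in the Gli2 window and in 3.92% of all windows. These are matches of letters within one short window and say nothing of binding elsewhere.

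The files held 3085 cells of the sort and 2682, 2140 and 2657 cells of lungs 1, 2 and 3, with medians of 7201 to 12007 unique molecular identifiers (UMIs, counted RNA molecules) per cell, the highest in the sort. After doublets were removed, 3055, 2646, 2106 and 2631 cells were used. Any 2 libraries shared between 7 and 13 cell barcodes. Acta2, which encodes smooth muscle actin, had a UMI in 98.3% of sorted cells against 31.3 to 40.4% of lung cells, and Tbx4 was at 43.7 CPM (UMIs of the gene scaled to a cell total of 1e6) in the sort against 11 to 14.8 in the lungs. The leukocyte gene Ptprc was at 0.207 CPM in the sort and 38.9 to 52.5 CPM in the lungs.

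Cells were clustered on 10360 genes that included the marker genes and none of the hedgehog genes, and the tests below used the other 10314. Clusters were named by fixed markers, and these names are rebuilt from the data. AT1-like cells (885) and AT2-like cells (866), the alveolar lineages of gas exchange and of surfactant, raised 8 of 8 markers each, and secretory airway-like cells (107) raised 4 of 5. Among mesenchymal cells, 1074 were matrix fibroblast-like (6 of 7 markers), 455 myofibroblast-like (7 of 7) and 196 pericyte-like (8 of 9). A further 214 cells raised 6 of 6 mesenchymal markers. Their leading genes held markers of myofibroblast-like (Aspn), adventitial-like (Mfap5) and smooth muscle-like cells (Tagln) in equal number. They are called Ptn-Agtr2 mesenchyme after their leading genes. At this clustering smooth muscle-like cells formed no class of their own in the lungs, although they did at resolution 2 and at resolution 0.5, where they took the place of Ptn-Agtr2 mesenchyme: the summed level of 8 smooth muscle markers was 4541 to 5617 CPM in myofibroblast-like cells, 3345 to 4861 CPM in Ptn-Agtr2 mesenchyme, 1645 to 1895 CPM in pericyte-like cells and 569 to 681 CPM in matrix fibroblast-like cells. The endothelium (1369 cells) and immune cells (2180) complete the comparison. Levels below are CPM averaged over the cells of a class, given for lungs 1, 2 and 3 in that order, and are compared between classes for one gene, never between genes. Differences are on the scale of log2(CPM + 5), which understates changes of low genes, with the standard error (SE), from limma with a lung term and Benjamini-Hochberg adjustment over all genes tested.

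Shh was an epithelial transcript. In the epithelium it was at 81.0, 109 and 99.1 CPM. The highest value in any lung was 2.32 CPM in the mesenchyme, 3.28 CPM in the endothelium and 2.50 CPM in immune cells. The epithelium thus lay above each other compartment in every lung, with no overlap. Against the mean of the other 3 compartments its log2 difference was 3.91 ± 0.11 (SE, n = 3 lungs; limma, adjusted p = 1.58e-23).

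The epithelium differed from the rest at most genes, so this count is read against a high background. In that comparison 73% of the 5246 genes tested were called, 28.1% higher and 44.9% lower. Of the 8 hedgehog genes that passed the filter of a mean of 5 CPM, 1 was higher, namely Shh, and 4 were lower. The lower ones were Hhip (log2 difference -1.58 ± 0.12, adjusted p = 2.57e-13), Gas1 (-1.30 ± 0.09, adjusted p = 1.5e-13), Boc (-1.12 ± 0.09, adjusted p = 4.24e-12) and Gli1 (-0.74 ± 0.09, adjusted p = 2.27e-08, all by limma with Benjamini-Hochberg adjustment). Ptch1 was at 0.05 ± 0.09, Smo at 0.06 and Gli3 at 0.02, and none of these passed (limma, adjusted p = 0.652, 0.54 and 0.865), whereas edgeR's test on summed UMIs called all 3 higher and median-of-ratios scaling Gli3 (0.24, limma adjusted p = 0.0116). The median difference of the 8 genes was -0.36, beside -0.11 over all genes tested. Gli2 did not pass the filter. The filter took the mean over all compartments compared. Shh passed it through the epithelium, and Hhip, Gas1, Boc and Gli1 through the mesenchyme. The mean set against the epithelium includes the mesenchyme. Outside it, levels were low: Hhip averaged 2.46 CPM in the epithelium, 3.22 in the endothelium and 1.57 in immune cells. Gas1 averaged 1.78, 4.50 and 1.14 CPM, Boc 1.31, 2.05 and 1.41 CPM, and Gli1 0.979, 0.918 and 0.467 CPM, in that order.

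**Figure D1:**
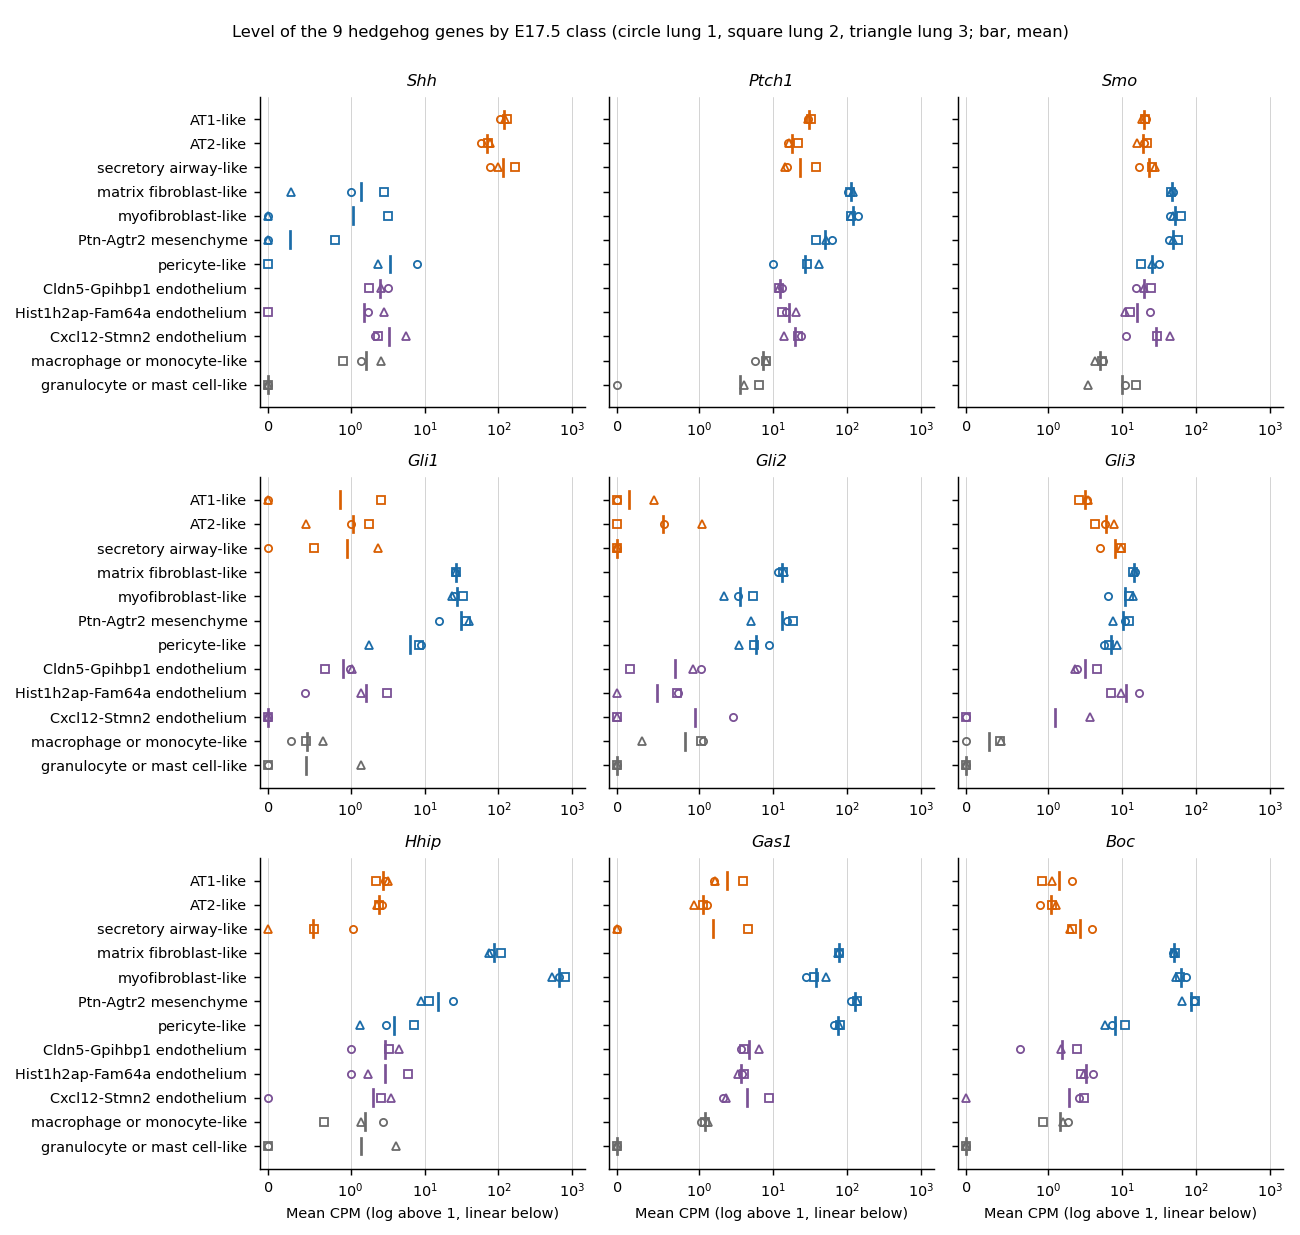
Mean CPM of each of the 9 genes (one panel each, symmetric log axis) in the 12 classes of the E17.5 lungs, with lungs 1, 2 and 3 as circle, square and triangle and a bar at their mean. Shh stands high in the 3 epithelial classes (58.8 CPM or more in every lung), while Hhip reaches 533 to 800 CPM in myofibroblast-like cells.

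Within the epithelium Shh was present in all 3 classes. AT1-like cells held 105, 132 and 123 CPM, and AT2-like cells 58.8, 72.6 and 75.7 CPM. Secretory airway-like cells, of which each lung gave only 27 to 43, held 76.6, 166 and 97.7 CPM. AT1-like cells were above AT2-like cells in 3 of 3 lungs without overlap, while the airway-like range covered the AT1-like one and its lowest lung lay just above the highest of AT2-like cells. No other class in the fit exceeded 8.0 CPM in any lung.

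None of the 8 genes tested was called between AT1-like and AT2-like cells, where 9.03% of 5358 genes were called (5% higher and 4.03% lower in AT1-like cells). Gli1, Hhip, Gas1 and Boc had passed the filter through the mesenchyme. They averaged 0.871, 2.75, 2.36 and 1.39 CPM in AT1-like cells and 1.08, 2.42, 1.12 and 1.11 CPM in AT2-like cells. At such levels, with 5 CPM added, a call was hardly possible. The count of 0 is therefore not comparable with the share over all genes. For Shh the log2 difference was 0.76 ± 0.30 (limma, unadjusted p = 0.0157, adjusted p = 0.132), the only 1 of the 8 with an unadjusted p under 0.05. Its call depended on the method. edgeR's quasi-likelihood test on summed UMIs called 2 of the genes higher in AT1-like cells, Shh (adjusted p = 1.22e-06) and Ptch1 (adjusted p = 0.000147), where limma gave Ptch1 0.63 ± 0.31 (adjusted p = 0.311). Between airway-like cells and the mean of the alveolar classes limma called 0 of the 8 genes, and edgeR called 0 as well. Of all genes limma called 25.1% (14.8% higher, 10.3% lower). Gli1, Hhip, Gas1 and Boc averaged only 0.959, 0.547, 1.51 and 2.67 CPM in airway-like cells, so the same limit holds for this count. The 1 gene with an unadjusted p under 0.05 was Gli3 (0.45 ± 0.22, adjusted p = 0.133), and Shh was at 0.24 ± 0.26 (adjusted p = 0.557).

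Shh varied between the main clusters of each alveolar class. In the AT1-like class the cluster led by Msln, Gprc5a and Aqp5 (481 cells) held 127, 154 and 142 CPM, and the cluster led by Sprr1a and Cldn4 (375 cells) held 78.6, 114 and 99.9 CPM. In the AT2-like class the cluster led by Mia, Bex4 and Clu (377 cells) held 73.6, 87.3 and 101 CPM, against 47.2, 57.4 and 59.7 CPM in the cluster led by Retnla, Lyz1 and Cxcl15 (489 cells). A further AT1-like cluster held 29 cells. Neither pair overlapped, and these differences between clusters were not tested. The 8 AT2 markers, surfactant genes among them, also summed to 17814 to 19518 CPM in AT1-like cells against 91142 to 109821 CPM in AT2-like cells; the part of this in the Shh levels was not tested.

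A Shh UMI was found in 61.1% ± 5.4 of AT1-like cells (SD, n = 3 lungs), 51.6% ± 4.3 of AT2-like cells and 56.1% ± 7.2 of airway-like cells. In immune cells, which should lack the gene, the share was 1.31%, and in the mesenchyme 1.05%. Median depths ranged over the lungs from 7716 to 9700 UMIs in AT1-like, 10298 to 12040 in AT2-like and 6768 to 7866 in immune cells. With every cell thinned to 2000 UMIs, which left out no cell, the shares were 21.2% ± 1.6, 13.1% ± 2.6 and 19.4%, against 0.324% in immune cells and 0.373% in the mesenchyme. Shh-bearing cells were thus seen far above background in each epithelial class and at background in the mesenchyme.

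**Figure D2:**
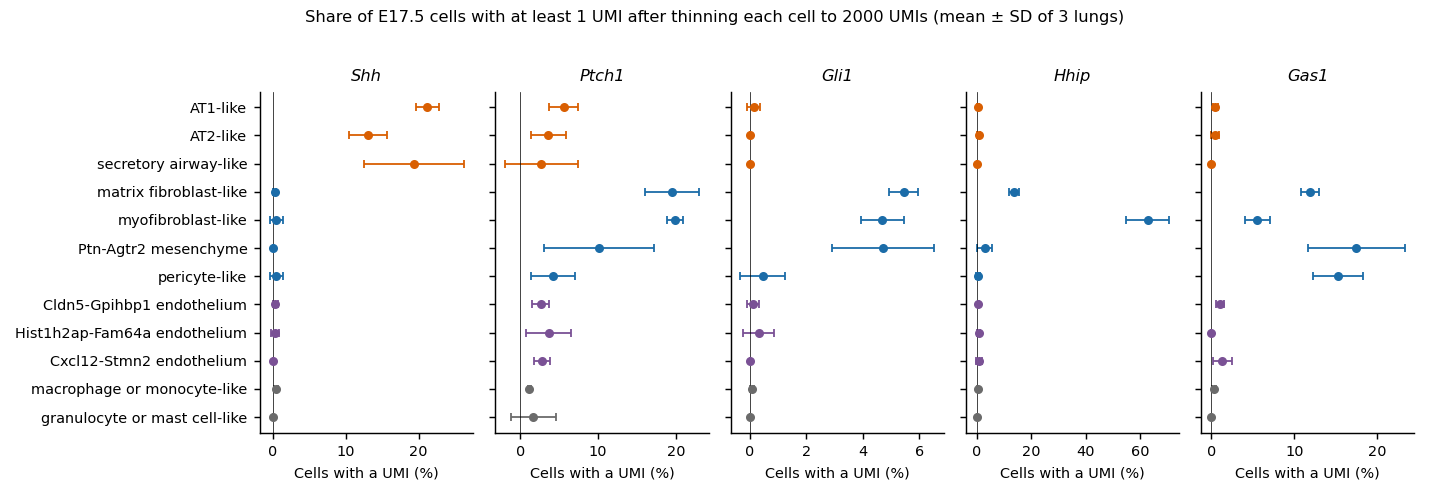
Percent of cells with at least 1 UMI after thinning every cell to 2000 UMIs (mean ± SD of 3 lungs) for Shh, Ptch1, Gli1, Hhip and Gas1 in each class. The Hhip share reaches 62.9% in myofibroblast-like cells, and the Shh shares of 13.1 to 21.2% are those of the 3 epithelial classes.

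Of the compartments compared, the mesenchyme was highest in the reception and response genes. Mesenchymal cells held Ptch1 at 100.3, 90.9 and 103 CPM, against 22.4 to 28.1 CPM in the epithelium, 12.4 to 14.3 CPM in the endothelium and 5.37 to 7.93 CPM in immune cells. Smo was at 46.0, 47.4 and 45.6 CPM in the mesenchyme and at 18.1 to 21.4 CPM in the epithelium. The antagonist Hhip was at 208, 234 and 172 CPM in the mesenchyme and at no more than 4.33 CPM in any lung in the other 3 compartments. For each of these genes the mesenchyme lay above the other 3 compartments without overlap, while the next in order differed: the epithelium followed for Ptch1, and the epithelium and endothelium (17.9 to 23.3 CPM) overlapped for Smo. By class, Smo was not set apart. Endothelial cells led by Vwf and Vegfc (66 cells, too few for the fit) held 43.2, 35.1 and 54.8 CPM. Those led by Cxcl12 and Stmn2 (144 cells) held 11.3, 29.6 and 44.8 CPM. Pericyte-like cells held 18.0 to 32.0 CPM.

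The co-receptors and Gli factors showed the same order at the top. Gas1 was at 68.4, 76.4 and 76.5 CPM in the mesenchyme and at most 4.95 CPM in the other 3 compartments, and Boc at 54.6, 54.9 and 48.5 CPM against at most 2.47 CPM. Gli1, the target that also acts as an activator, was at 23.1, 26.8 and 25.3 CPM against at most 2.09 CPM. Gli2, known as the main activator, was at 9.69, 11.5 and 9.13 CPM against at most 1.14 CPM. Gli3, known mainly as a repressor in the absence of ligand, was less restricted: 11.6, 12.7 and 13.1 CPM in the mesenchyme, 3.87 to 5.91 CPM in the epithelium, 4.22 to 5.76 CPM in the endothelium and no more than 0.408 CPM in immune cells. By class, endothelial cells led by Hist1h2ap and Fam64a (307 cells) held 17.2, 7.21 and 9.56 CPM, which overlapped myofibroblast-like cells (6.40 to 14.1 CPM).

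Of the 8 genes tested, 7 were higher in the mesenchyme than the mean of the other compartments and 1, Shh, was lower, in a comparison that called 74.8% of 5246 genes, 40.6% higher and 34.2% lower. The log2 differences were 4.83 ± 0.12 for Hhip (limma, adjusted p = 1.53e-25), 3.42 ± 0.09 for Gas1, 3.13 ± 0.09 for Boc, 2.47 ± 0.09 for Ptch1, 2.38 ± 0.09 for Gli1, 1.45 ± 0.09 for Smo and 1.13 ± 0.09 for Gli3 (adjusted p = 4.4e-12, the weakest of the 7). Each was higher in 3 of 3 lungs. The median over the 8 genes was 2.42, against 0.06 over all genes tested. Hhip, Gas1, Boc and Gli1 passed the filter only through their level in the mesenchyme, and Shh only through the epithelium. The count and the median of the 8 genes therefore rest in part on the filter. Gli2, tested only without the filter on low genes, was at 1.43 ± 0.08 (limma, adjusted p = 6.18e-08). The summed level of 7 epithelial markers was 80.9 to 150 CPM in the mesenchymal classes, so Shh in the mesenchyme (log2 difference -1.43 ± 0.11, limma adjusted p = 1.23e-12) sits beside a low epithelial signal whose part was not tested.

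Shares of cells gave the same picture, for Ptch1 also at equal depth. A Ptch1 UMI was found in 43.8% of mesenchymal cells (15.8% thinned), 22.3% of epithelial (5.29%), 9.83% of endothelial (2.63%) and 5.81% of immune cells (1.17%). For Gli1 the unthinned shares were 17.4% ± 2.1 in the mesenchyme, 1.03% in the epithelium and 0.341% in immune cells. Epithelial Gli1 thus lay far below the mesenchyme but above the immune share before thinning. After thinning it was at 0.139% in AT1-like and 0% in AT2-like cells. Epithelial Ptch1 was above the immune share also after thinning. Median depth ranged over the lungs from 6797 to 8383 UMIs in the mesenchyme and from 9251 to 10808 in the epithelium.

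Among the mesenchymal classes Hhip separated furthest. Myofibroblast-like cells held 667, 800 and 533 CPM, matrix fibroblast-like cells 80.0, 108 and 73.9 CPM, Ptn-Agtr2 mesenchyme 24.3, 11.6 and 9.10 CPM and pericyte-like cells 3.0, 7.16 and 1.35 CPM. No neighbouring pair in that order overlapped, and each mean was 7.65, 5.80 and 3.91 times the next. A Hhip UMI was found in 91.2% ± 3.9 of myofibroblast-like cells (62.9% ± 8.0 thinned), 37.9% of matrix fibroblast-like cells (13.6%), 7.18% of Ptn-Agtr2 mesenchyme (2.95%) and 2.96% of pericyte-like cells (0.457%). The immune share was 1.20% (0.290% thinned), so the pericyte-like share was near background. Hhip was also among the 10 genes of highest fold in the myofibroblast-like cluster, although it took no part in forming or naming it.

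Ptch1 followed another order. It was at 141, 111 and 113 CPM in myofibroblast-like cells and at 104, 110 and 120 CPM in matrix fibroblast-like cells, which overlapped. Ptn-Agtr2 mesenchyme held 62.7, 38.0 and 51.7 CPM, below both. Pericyte-like cells held 9.92, 28.6 and 41.8 CPM, a range that overlapped AT1-like cells (29.4 to 32.3 CPM), airway-like cells (14.5 to 38.3 CPM) and AT2-like cells (15.9 to 21.8 CPM). Matrix fibroblast-like, Ptn-Agtr2 and AT1-like cells did not overlap one another. Smo varied less: myofibroblast-like (45.0, 62.6 and 49.6 CPM), Ptn-Agtr2 (42.6, 56.7 and 49.4 CPM) and matrix fibroblast-like cells (49.0, 45.8 and 46.2 CPM) overlapped, and pericyte-like cells held 32.0, 18.0 and 25.7 CPM.

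The co-receptors were ordered differently from Hhip and Ptch1. Gas1 was highest in Ptn-Agtr2 mesenchyme at 114, 135 and 137 CPM. Matrix fibroblast-like (78.6, 77.9 and 74.2 CPM) and pericyte-like cells (66.0, 80.8 and 78.5 CPM) overlapped below it, and myofibroblast-like cells were lower at 27.6, 35.9 and 51.2 CPM. Every other class in the fit stayed at or under 8.88 CPM. Boc was at 93.6, 97.5 and 64.2 CPM in Ptn-Agtr2 mesenchyme, which overlapped myofibroblast-like cells at 72.7, 61.5 and 53.3 CPM. Matrix fibroblast-like cells followed without overlap at 48.6, 52.3 and 50.0 CPM, and pericyte-like cells were at 7.29, 10.9 and 5.91 CPM. Pericyte-like cells thus held Gas1 at the level of matrix fibroblast-like cells but little Boc: 38.0% of them had a Gas1 UMI and 6.52% a Boc UMI, where the immune shares were 0.856% and 0.887%.

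Gli1 was even across the other mesenchymal classes and lower in pericyte-like cells. It was at 15.9, 36.0 and 40.1 CPM in Ptn-Agtr2 mesenchyme, 25.2, 32.9 and 23.3 CPM in myofibroblast-like and 25.4, 26.5 and 26.9 CPM in matrix fibroblast-like cells, which all overlapped. Pericyte-like cells held 8.91, 8.36 and 1.76 CPM, below every one of them. Gli2 was at 11.6, 13.7 and 14.2 CPM in matrix fibroblast-like cells, 15.4, 18.4 and 4.94 CPM in Ptn-Agtr2 mesenchyme, 8.75, 5.54 and 3.48 CPM in pericyte-like and 3.29, 5.29 and 2.13 CPM in myofibroblast-like cells. Gli3 was at 14.8, 14.2 and 14.6 CPM in matrix fibroblast-like, 6.40, 12.6 and 14.1 CPM in myofibroblast-like, 10.9, 12.5 and 7.50 CPM in Ptn-Agtr2 and 5.65, 6.70 and 8.65 CPM in pericyte-like cells. Matrix fibroblast-like cells lay above myofibroblast-like cells in every lung for both Gli2 and Gli3, without overlap.

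**Figure D3:**
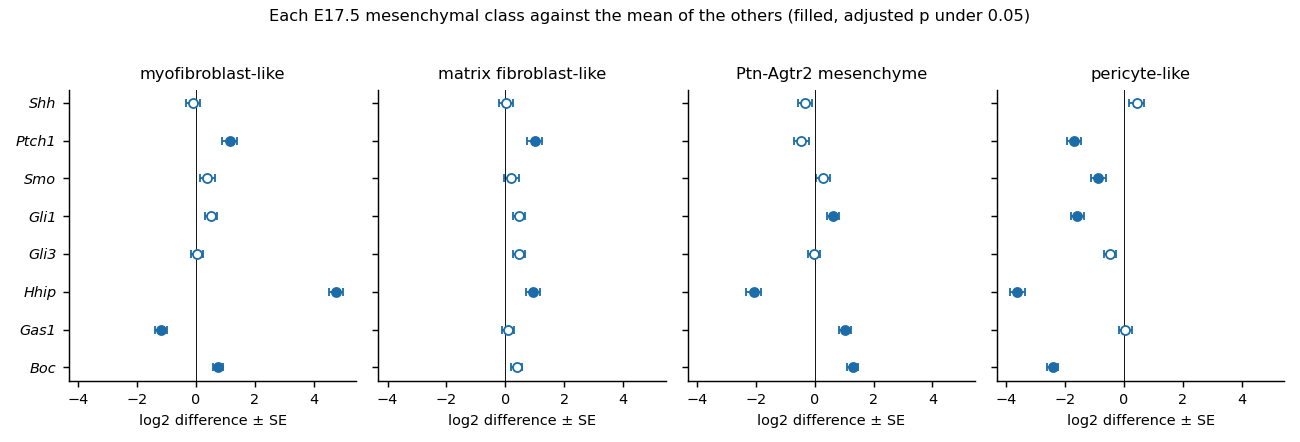
Log2 difference (± SE, scale of log2(CPM + 5), 3 lungs) of each hedgehog gene tested in each mesenchymal class against the mean of the other 3, with filled points where limma's adjusted p was under 0.05. Hhip spans from 4.76 in myofibroblast-like to -3.62 in pericyte-like cells, while Gas1 lies at -1.18 in the former and near 0 in the latter.

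Each mesenchymal class was tested against the mean of the other 3. In myofibroblast-like cells Hhip (4.76 ± 0.25, adjusted p = 4.71e-17), Ptch1 (1.15 ± 0.25, adjusted p = 0.000785) and Boc (0.75 ± 0.18, adjusted p = 0.00217) were higher and Gas1 (-1.18 ± 0.21, adjusted p = 3.95e-05) was lower, by limma with Benjamini-Hochberg adjustment. That made 4 of 8 genes, where 19.2% of 5358 genes were called, 11.2% higher and 8.01% lower. Boc no longer passed without lung 1 (adjusted p = 0.0704) or at clustering resolution 2 (0.30, limma adjusted p = 0.438). Gli1 was at 0.50 (adjusted p = 0.0948). The median of the 8 was 0.44, beside 0.05 over all genes.

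Matrix fibroblast-like cells were higher in 2 of 8 genes, Ptch1 (0.99 ± 0.25, limma adjusted p = 0.00413) and Hhip (0.94 ± 0.25, limma adjusted p = 0.00597), and lower in none, where 16.1% of genes were called, 6.36% higher and 9.78% lower. The Hhip call was lost without lung 2 (adjusted p = 0.0744) and without lung 3 (adjusted p = 0.0746). With a finer clustering, at resolution 2, its difference was 0.10 (limma, adjusted p = 0.917). Gli1 was at 0.46, Gli3 at 0.47 and Boc at 0.38, none past the threshold (adjusted p = 0.151, 0.135 and 0.182). edgeR's test called 7 genes in this class. The median of the 8 was 0.42, beside -0.05 over all genes. The mean of the other classes is one of log values. In CPM, Hhip was lower in matrix fibroblast-like cells (73.9 to 108) than in myofibroblast-like cells (533 to 800).

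Ptn-Agtr2 mesenchyme was higher in the co-receptors Boc (1.29 ± 0.18, limma adjusted p = 1.52e-06) and Gas1 (1.03 ± 0.21, limma adjusted p = 0.000365) and lower in Hhip (-2.07 ± 0.25, limma adjusted p = 7.62e-08). At clustering resolution 0.5 Boc lost the call (0.34, limma adjusted p = 0.214). Gli1 passed narrowly (0.62 ± 0.21, limma adjusted p = 0.0432) with lung 1 in the opposite direction, and was called in 6 of 15 alternatives. It was lost without lung 2 (adjusted p = 0.219) and without lung 3 (adjusted p = 0.591). These were 4 of 8 genes, where 14% of all genes were called, 6.72% higher and 7.3% lower. The medians were 0.13 for the 8 genes and -0.03 for all genes.

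Pericyte-like cells were lower in 5 of 8 genes and higher in none, where 24.7% of genes were called, 13.3% higher and 11.4% lower. The lower genes were Hhip (-3.62 ± 0.25, limma adjusted p = 6.49e-14), Boc (-2.42 ± 0.18, adjusted p = 4.52e-13), Ptch1 (-1.70 ± 0.25, adjusted p = 1.97e-06), Gli1 (-1.58 ± 0.21, adjusted p = 2.1e-07) and Smo (-0.87 ± 0.25, adjusted p = 0.00834). Smo no longer passed without lung 2 (limma, adjusted p = 0.225). Gas1 was at 0.05 ± 0.21 (limma, adjusted p = 0.912) and Gli3 at -0.48 (adjusted p = 0.0831). Shh, higher in 2 of 3 lungs, was at 0.43 ± 0.24 (limma, adjusted p = 0.216) and passed only without lung 2 (0.91, limma adjusted p = 0.0132). It rested on 4 UMIs in the 196 cells, 3, 0 and 1 in lungs 1, 2 and 3, so lung 2 was the lung without a count. Such counts do not bear a reading of Shh in this class. The medians were -1.23 for the 8 genes and 0.00462 for all genes. The summed level of 8 endothelial markers was 213 to 266 CPM in pericyte-like cells against 107 to 209 CPM in the other mesenchymal classes, and of 7 immune markers 178 to 284 CPM against 142 to 188 CPM. The part of these in the lower hedgehog genes was not tested.

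Gli2 entered these comparisons only when the filter on low genes was dropped. It was then higher in matrix fibroblast-like cells (0.65 ± 0.17, limma adjusted p = 0.00887) and lower in myofibroblast-like cells (-0.81, limma adjusted p = 0.00107). In Ptn-Agtr2 mesenchyme it was at 0.51 and in pericyte-like cells at -0.36, neither past the threshold (limma, adjusted p = 0.0514 and 0.175).

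A wider list of 32 hedgehog genes covered other ligands, ligand release, receptors, regulators, cilium transport and genes known as mesenchymal targets. Between compartments 18 of them passed the filter. In the mesenchyme 15 were higher and 1 lower, against the 40.6% and 34.2% of all genes. Leading were the forkhead factor Foxf2 (log2 difference 3.96), the ligand-binding glypican Gpc3 (3.07) and the forkhead factor Foxf1 (2.48), and the lower one was the cyclin Ccnd1 (-2.08). In the epithelium 10 were higher, led by Gpc3 (2.17), Bmp4 (1.97) and Mycn (1.55), and 8 lower, led by Foxf1 (-3.15), Foxf2 (-1.22) and the cilium gene Arl13b (-1.03). Over all genes 28.1% were higher and 44.9% lower there, so the lower count was near the background.

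Foxf1, a known hedgehog target of lung mesenchyme, did not follow Hhip. It was at 587, 463 and 514 CPM in myofibroblast-like cells, 402, 322 and 280 CPM in pericyte-like cells, 122, 86.8 and 86.3 CPM in matrix fibroblast-like cells and 56.4, 63.0 and 58.8 CPM in Ptn-Agtr2 mesenchyme. The endothelium, where Hhip was at or under 4.33 CPM, held Foxf1 at 482, 374 and 417 CPM. Foxf1 was thus high in both myofibroblast-like and pericyte-like cells, and the epithelium held 5.02, 8.96 and 6.84 CPM.

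In the mesenchymal classes 19 genes of the wider list were tested. Myofibroblast-like cells (11.2% of all genes higher, 8.01% lower) were higher in 7, led by the forkhead factors Foxl1 (2.10), Foxf1 (2.01) and Foxf2 (1.57), and lower in 3, namely Gpc3 (-1.86), the cyclin Ccnd2 (-1.45) and the Wnt antagonist Sfrp1 (-1.26). Matrix fibroblast-like cells (6.36% of all genes higher, 9.78% lower) were higher in Gpc3 (0.92) and Sfrp1 (0.76) and lower in 4, led by Foxl1 (-1.18), Foxf1 (-1.14) and Ccnd2 (-0.76). Ptn-Agtr2 mesenchyme (6.72% of all genes higher, 7.3% lower) was higher in 5, led by Sfrp1 (2.28), Gpc3 (2.14) and Ccnd1 (1.11), and lower in 4, led by Foxf2 (-2.74), Foxf1 (-2.03) and Gsk3b (-0.47). Pericyte-like cells (13.3% of all genes higher, 11.4% lower) were higher in 3, a count near the background, Ccnd2 (1.71), Foxf1 (1.15) and Foxf2 (0.81), and lower in 5, led by Sfrp1 (-1.77), Foxl1 (-1.64) and Gpc3 (-1.21). Foxf1 and Foxf2 were thus higher and Gpc3 and Sfrp1 lower in myofibroblast-like cells, with the reverse in Ptn-Agtr2 mesenchyme.

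Of the same 19 genes, AT1-like cells were higher than AT2-like cells in 1, Ccnd2 (0.77, limma adjusted p = 0.000661), and lower in none, near the 5% and 4.03% of all genes. Foxf1 was at -0.47 (limma, adjusted p = 0.368). Airway-like cells were higher than alveolar cells in 6, led by Ccnd2 (2.66), the cilium gene Ift88 (1.39) and Sfrp1 (1.19), and lower in 5, led by Mycn (-2.53), Bmp4 (-1.73) and the kinase gene Prkaca (-0.90), where 14.8% of all genes were higher and 10.3% lower. Foxf1 was at 0.27 (limma, adjusted p = 0.401). The co-receptor Cdon was too low to test: it was at 14.3, 12.3 and 13.8 CPM in Ptn-Agtr2 mesenchyme, 6.76, 13.8 and 7.82 CPM in airway-like cells and 4.25, 4.97 and 5.62 CPM in the epithelium as a whole.

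For each hedgehog gene the genes of most similar level across the 12 classes were found by Pearson's r of the mean log2(CPM + 5) among 9610 genes. This is a description over 12 points from the same 3 lungs. The first for Shh were Clic6 (0.998), Mal2 (0.996) and Mpzl2 (0.994), for Hhip Adgrg2 (0.984), Wnt5a (0.982) and Opcml (0.970), and for Ptch1 Setbp1 (0.966), Irf2bpl (0.953) and Zranb1 (0.942). Gli1 and Boc were in each other's first 3 (0.991). Gli1 was joined by Kcne1l (0.993) and Srpx (0.988), and Boc by Abi3bp (0.991) and Adamts2 (0.988). With a pseudocount of 1 in place of 5, Boc left the first 3 of Gli1, and of the 9 lists only that of Ptch1 kept its 3 genes. Gas1 lay nearest to Hoxb5os (0.986), Serping1 (0.985) and Tmem45a (0.985), Gli2 to Cdh11 (0.976), Tcf21 (0.974) and Olfml3 (0.973), Smo to Zfp30 (0.979), Bace1 (0.955) and Ccdc8 (0.95), and Gli3 to Vegfb (0.923), Dzip3 (0.920) and 2610037D02Rik (0.900). Of these, Clic6, Mpzl2, Setbp1, Zfp30, Bace1, Ccdc8, Srpx, Tcf21, Vegfb, 2610037D02Rik, Wnt5a and Adamts2 were among the genes used for clustering.

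The E16.5 sort allowed no test, being 1 sample. Of its 3055 cells 2990 were mesenchymal, and 3 of its classes had a counterpart in the lungs: 446 matrix fibroblast-like, 714 myofibroblast-like and 1049 pericyte-like cells. Over the 27 pairs of gene and class, 1 lay at least 2-fold outside the range of the lungs, Hhip in matrix fibroblast-like cells. It was 1 of the 22 pairs that passed the filter of 5 CPM, and over all genes passing that filter in the same classes 6.38% lay that far outside in either direction. In matrix fibroblast-like cells alone 3.39% of genes lay that far above and 4.49% that far below, in myofibroblast-like cells 0.589% and 4.92%, and in pericyte-like cells 0.874% and 4.87%.

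In sorted matrix fibroblast-like cells Hhip averaged 23.7 CPM, against 73.9 to 108 CPM in the lungs. From summed UMIs its level was 26.0 CPM (95% exact Poisson interval 21.6 to 31.0, counting error only). All 3 clusters of that class were below the lungs, at 13.0, 30.9 and 54.2 CPM, and the second was led by mitotic genes. Ptch1 was also below the lungs, at 66.1 CPM against 104 to 120 CPM, while Gli3 (29.4 against 14.2 to 14.8 CPM), Smo (73.2 against 45.8 to 49.0 CPM) and Gas1 (108 against 74.2 to 78.6 CPM) were above. Boc was at 56.5 CPM, Gli1 at 26.9 CPM and Gli2 at 16.7 CPM.

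Sorted myofibroblast-like cells were again highest in Hhip among the 3 matched classes, at 409 CPM against 533 to 800 CPM in the lungs, with Ptch1 at 144 CPM against 111 to 141 CPM. Gas1 was at 18.9 CPM against 27.6 to 51.2 CPM, Smo at 69.1 CPM against 45.0 to 62.6 CPM and Boc at 43.9 CPM against 53.3 to 72.7 CPM. The class joined a cluster led by Crh and Fgf18 (440 cells), with Hhip at 513 CPM and Ptch1 at 122 CPM, and one led by Ibsp and Smpx (274 cells), with Hhip at 244 CPM and Ptch1 at 180 CPM. Hhip and Ptch1 thus ran in opposite order in these clusters.

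Sorted pericyte-like cells had little Hhip (2.17 CPM), with Ptch1 at 22.5 CPM, Gli1 at 6.87 CPM and Gas1 at 59.3 CPM. Smo was at 46.5 CPM against 18.0 to 32.0 CPM in the lungs. The 586 smooth muscle-like cells of the sort, which had no counterpart class in the lungs at this clustering, held Hhip at 139 CPM and Ptch1 at 86.4 CPM. Their clusters were unlike: one led by Map3k7cl and Fabp4 (154 cells) held Hhip at 3.79 CPM and Ptch1 at 15.2 CPM, and one led by Thbd and Igfbp5 (117 cells) held Hhip at 213 CPM and Gli3 at 46.7 CPM. A mesenchymal cluster led by Actc1 and Clu (195 cells) held Hhip at 706 CPM, Ptch1 at 117 CPM and Gas1 at 133 CPM. Shh had 0 UMIs in the smooth muscle-like cells, a count that allows up to 0.387 CPM (3 UMIs of the class total). It was at 70.1 CPM from summed UMIs (95% exact Poisson interval 55.9 to 86.8) in the 38 AT2-like cells that came through the sort. These cells raised 5 of 8 AT2 markers, with the airway marker Scgb3a2 among their leading genes. Their median depth was 23070.5 UMIs, against 12007 over the whole sort.

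**Figure D4:**
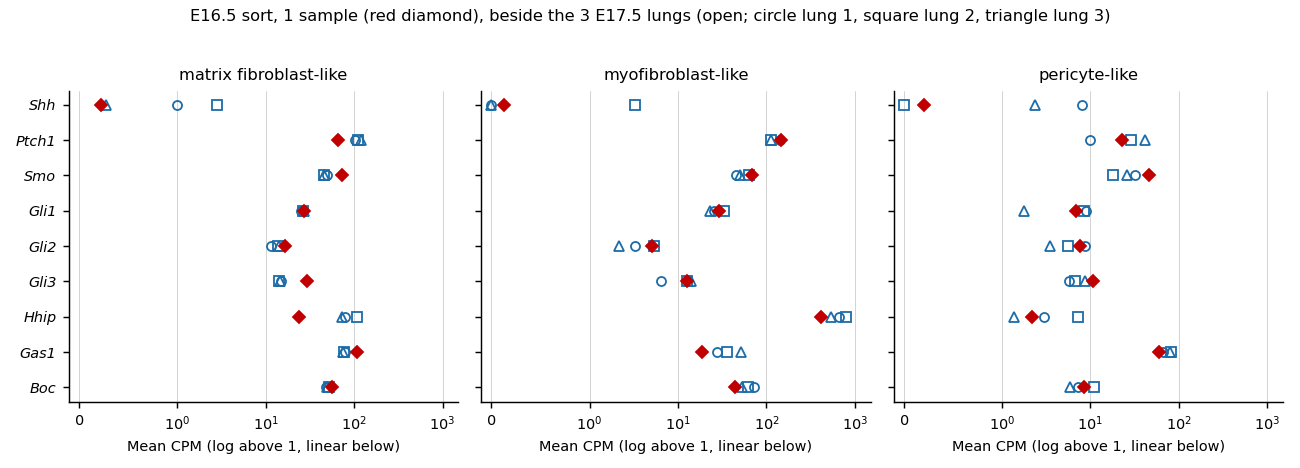
Mean CPM of the 9 genes (symmetric log axis) in matrix fibroblast-like, myofibroblast-like and pericyte-like cells, with the E16.5 sort as a red diamond beside the 3 E17.5 lungs. Hhip of matrix fibroblast-like cells, at 23.7 CPM in the sort and 73.9 to 108 CPM in the lungs, is the only pair at least 2-fold outside the lungs' range.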

How the data were processed

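The deposited tables hold 1 value per gene and cell. The tools named are Cell Ranger 1.3.1 and Seurat 3.0.0, per the submitters' processing notes, with no role for either. For the genome build, no source used here gives one. The authors deposited a normalized signal, each UMI count scaled by the library's median total over the cell's total, a step seen in the values. UMIs were recovered as whole numbers for 100% of values (tolerance 0.01). Library totals were 41038008 UMIs for the sort and 20347458 to 23996253 for the lungs. The labels' protocols speak of lysis plates, while the barcodes look like those of a droplet method.

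Genes were divided by a hash of their symbols, except that all markers were put in the first group and all hedgehog genes in the second. Cells were clustered with scanpy 1.11.5 (2000 variable genes, 30 components, 15 neighbours, Leiden resolution 1) on the first group, lungs together and the sort alone, after scrublet removed 30 sorted and 26 to 36 lung doublets per library. A class needed 3 raised markers, a condition chosen after seeing the data, and 20 cells in each lung to enter a fit. A marker was raised where its log2 level in a cluster exceeded the mean over the clusters of the lungs by more than 1. Clusters of the sort were named against that same mean of the lungs. Mean CPM per lung and class was tested with limma 3.58.1 (R 4.3.3, log2(CPM + 5), trend, lung as block, mean of at least 5 CPM, adjusted p under 0.05). Classes of one lung are paired by origin; correlations of their deviations were 0.154 to 0.266 for compartments and 0.047 to 0.088 for classes. Alternatives were edgeR 4.0.16 on summed UMIs, other scalings, pseudocounts, filters, clustering resolutions, doublets kept and each lung left out. In data simulated for the mesenchyme comparison (5220 genes) 100% of 2-fold and 100% of 4-fold changes were recovered, with 19 of 219 calls false. For the myofibroblast-like comparison (5360 genes) these were 64%, 100% and 4 of 168. The simulated classes shared the same mean for every unchanged gene, with an assumed log2 spread of 0.1. In the real mesenchyme comparison 74.8% of genes were called, so these rates do not give the power of the real tests. Whether the 3 lungs share a litter is not stated per the labels, so p-values cover only the spread between these samples. The genes and lists were chosen with earlier results of these data known. All 9 genes were named in every class, with the 3 largest called changes of the wider list in each direction, Foxf1 and Cdon in any case, and the 3 genes of highest r.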

Additional observations from a re-analysis of the deposited data

How the results depend on the processing

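Of 64 differences tested, 28 were called, and 21 of the 28 kept their call in every alternative run; 433 of 454 alternative values of called differences kept call and direction, 21 lost the call and 0 reversed. Of 594 alternatives of differences not called, 22 were newly called, 11 by edgeR. Of single calls, Gli1 in Ptn-Agtr2 mesenchyme was kept in 6 of 15 alternatives, and Boc in myofibroblast-like cells was lost with a pseudocount of 1 (adjusted p = 0.0787). Gained calls were Ptch1 as lower in Ptn-Agtr2 mesenchyme by edgeR (-0.79, adjusted p = 0.00225) and at resolution 0.5. Others were Gli1 in myofibroblast-like and Boc in matrix fibroblast-like cells at resolution 0.5. In pericyte-like cells Gli3 was called lower with summed UMIs and with median-of-ratios scaling. Shh was called higher there without lung 2 (0.91, limma adjusted p = 0.0132), on 4 UMIs over the 3 lungs. The number of genes called moved most in the following cases. edgeR's test called 8 in the epithelium, adding Ptch1, Smo and Gli3 as higher, against 5 by limma. Between AT1-like and AT2-like cells, where limma called 0, a pseudocount of 10 gave 1, keeping doublets gave 1 and edgeR gave 2. In airway-like cells, 0 became 1 with CPM of summed UMIs and 1 with doublets kept. Ptn-Agtr2 mesenchyme fell from 4 to 2 with a pseudocount of 1. Matrix fibroblast-like cells went from 2 to 0 with a pseudocount of 1, to 0 at clustering resolution 2 and to 7 with edgeR, and ranged from 1 to 2 when each lung was left out in turn. The count of pairs where the sort stood apart rose from 1 to 2 with doublets kept and to 2 at resolution 2. Over all genes, limma called 484 and edgeR 1541 between AT1-like and AT2-like cells, 865 and 1756 in matrix fibroblast-like cells, and 1031 and 1560 in myofibroblast-like cells. With edgeR on summed UMIs the share of higher calls was 44.0% against 54.3% in the mesenchyme, 30.8% against 59.0% in airway-like cells and 60.8% against 39.4% in matrix fibroblast-like cells, and with median-of-ratios scaling 42.5% in the mesenchyme and 48.3% in airway-like cells. The median of all genes was 0.06 in the mesenchyme by limma, -0.09 by edgeR and -0.08 with median-of-ratios scaling, and in airway-like cells 0.07 by limma and -0.20 by edgeR. The cause of these changes was not tested. Dropping the replicate block, the term for the lung that classes of one lung share, left 5, 8, 0, 0, 4, 2, 4 and 5 genes called over the 8 comparisons, with no call lost or gained. Fitting epithelial and mesenchymal classes only, an alternative chosen after seeing the data, lost Gli1 in Ptn-Agtr2 mesenchyme (adjusted p = 0.0682) and no other call. Resolution 2 gave no class matching Ptn-Agtr2 mesenchyme and was not run there. Gli2 did not reach the filter of a mean of 5 CPM.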

Other observations

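Some values belonged to no comparison above and were chosen after they were seen. Dhh, another hedgehog ligand, stood out in the smaller endothelial clusters of these lungs. It was at 31.5, 33.2 and 66.8 CPM in lungs 1, 2 and 3 in the cluster led by Cxcl12 and Stmn2 (144 cells). In the one led by Vwf and Vegfc (66 cells) Dhh was at 42.1, 26.1 and 6.69 CPM. No other class exceeded 3.82 CPM in any lung, the larger endothelial ones (852 and 307 cells) included. The third ligand, Ihh, did not exceed 0.878 CPM in any class. Scube2, whose product helps release the ligand, was at 37.0, 37.6 and 34.3 CPM in matrix fibroblast-like cells, 10.9, 12.3 and 0 CPM in Ptn-Agtr2 mesenchyme, and at or under 5.31 CPM in pericyte-like and 2.05 CPM in myofibroblast-like cells. In the mesenchyme against the other compartments its log2 difference was 2.20 (limma, adjusted p = 2.18e-19).

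Mesothelium, the cells covering the lung surface, was named by 5 of 5 markers in 32 cells, 15 of lung 1 and 16 of lung 3, too few for the fit. In lungs 1 and 3 Gas1 was at 333 and 473 CPM, Hhip at 575 and 201 CPM, Ptch1 at 135 and 75.7 CPM, Gli1 at 32.3 and 36.0 CPM and Cdon at 31.9 and 39.2 CPM. The Gas1 and Cdon levels were above those of every class in the fit.

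The matrix fibroblast-like class joined a larger cluster (960 cells) and one led by the mitotic genes Spc25 and Hist1h2ap (114 cells). Ptch1 was at 140, 162 and 154 CPM in the mitotic cluster against 100, 105 and 115 CPM in the other, Hhip at 147, 138 and 116 CPM against 73.1, 105 and 66.9 CPM, and Gli1 at 32.0, 31.3 and 31.6 CPM against 24.8, 26.0 and 26.2 CPM. Gas1 was lower there, at 55.2, 39.2 and 69.2 CPM against 81.0, 81.6 and 75.0 CPM. None of these pairs overlapped, and the differences were not tested.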
